A study of Mus musculus with 6 samples.

Results

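A set of 10 genes that remove superoxide, peroxides, free heme and reactive metal ions was followed through a single-cell RNA-seq study of lung fibroblasts (FBs) in bleomycin injury. They were the superoxide dismutases Sod1, Sod2 and Sod3, catalase (Cat), the glutathione peroxidases Gpx1, Gpx3 and Gpx4, the metallothioneins Mt1 and Mt2, and heme oxygenase 1 (Hmox1). The rule named the genes and set no limit on a measured value, but they were named with earlier results of these data known. All 10 had a row in each of the 6 count tables, which together held 42619 gene names.

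The mice carried a Pdgfra-GFP reporter, so cells using the promoter of platelet-derived growth factor receptor alpha were green. GFP+ live cells were sorted from lungs 14 days after 1 oropharyngeal dose of PBS or bleomycin (single-dose PBS and single-dose bleomycin) or 14 days after the last of 3 weekly doses (repetitive PBS and repetitive bleomycin). The single dose of bleomycin was 2 U/kg in the protocol and 4 U/kg in the treatment field, and the repetitive doses were 1, 1 and 0.5 U/kg. The organoid libraries held alveolar type 2 cells (AEC2s), marked with tomato through a SpcCreER allele after tamoxifen, that were grown for 2 weeks in Matrigel with GFP+ FBs from PBS mice (normal FBs) or from mice given 2 U/kg bleomycin (fibrogenic FBs). FB donors were male and 10 to 14 weeks old. Each library pooled 3 mice and was the only library of its group, so no difference between groups had a replicate check and no test between groups was made. The sort follows the reporter and not the identity of a cell, and the lung libraries also held epithelial, endothelial and immune barcodes.

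Superoxide dismutases turn superoxide into hydrogen peroxide: Sod1 in the cytosol, Sod2 in mitochondria and Sod3 outside the cell. Catalase and the glutathione peroxidases remove the peroxides, with Gpx3 secreted into plasma and tissue fluid and Gpx4 acting on lipid peroxides in membranes. Metallothioneins are small cysteine-rich proteins that bind zinc, copper and cadmium, and their genes respond to metals through the factor Mtf1 as well as to glucocorticoids and inflammation. Hmox1 breaks down heme and is a target of NRF2, the factor behind many antioxidant genes. Bleomycin binds iron and cuts DNA through reactive oxygen.

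Mt2 and Mt1 are neighbours on chromosome 8, with 5315 bases between the end of Mt2 (chr8:94172618-94173567) and the start of Mt1 (chr8:94178883-94180327) in the RefSeq annotation of GRCm38.p6. Hmox1 lies elsewhere on the same chromosome (chr8:75093618-75100593), and the other 7 genes lie on chromosomes 2, 5, 9, 10, 11, 16 and 17. RefSeq promoter windows, from 250 bases before to 50 bases after a gene's start, were held for 8 of the 10 genes, all but Sod3 and Hmox1. The windows of Mt2 (chr8:94172368-94172647, plus strand) and Mt1 (chr8:94178839-94179118, plus strand) are shown because the results below turn on this pair of neighbours. The first 280 bases of each are printed, with metal response element cores (TGCACNC or TGCGCNC, on either strand) and the antioxidant response element core (TGACNNNGC, on either strand) in capitals. The listed start of the Mt1 gene falls inside its window.

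Mt2: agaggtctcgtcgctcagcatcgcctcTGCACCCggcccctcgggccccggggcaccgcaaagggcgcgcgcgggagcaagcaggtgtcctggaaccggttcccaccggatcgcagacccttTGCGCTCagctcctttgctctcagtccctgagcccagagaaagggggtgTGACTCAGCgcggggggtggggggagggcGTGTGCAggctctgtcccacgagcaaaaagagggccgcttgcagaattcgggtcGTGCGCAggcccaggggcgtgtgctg

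Mt1: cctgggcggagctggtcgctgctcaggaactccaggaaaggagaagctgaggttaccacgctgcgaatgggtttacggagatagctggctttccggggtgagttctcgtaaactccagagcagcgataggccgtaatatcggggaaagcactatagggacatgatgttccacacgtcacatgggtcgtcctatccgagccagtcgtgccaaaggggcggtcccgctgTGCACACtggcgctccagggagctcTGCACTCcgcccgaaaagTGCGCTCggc

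The Mt2 window held 4 metal response cores and 1 antioxidant response core, and the Mt1 window held 3 metal response cores and none of the antioxidant core. No 2 matches overlapped. Of 32851 RefSeq promoter windows of this length, 25.7% held either metal response core, 0.517% held at least 4 of them, and 12.39% held the antioxidant core. Among the other 6 genes with a window, Sod1 held 1 antioxidant core and no window held a metal response core. These matches describe letters and not bound sites.

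The tables held unique molecular identifier (UMI) counts of 1060 and 1015 barcodes (single-dose PBS and bleomycin), 6139 and 10737 (repetitive PBS and bleomycin), and 5441 and 8894 (organoids with normal and fibrogenic FBs), with 7201081 to 238618743 UMIs per library. FBs were the clusters left once clusters of other cell types were set aside by marker genes. In the organoid libraries, clusters with both epithelial and FB markers (221 and 348 barcodes) and clusters that met no class (563 and 760 barcodes) were set aside as well. In the FBs the level of Pdgfra, in counts per 1e6 UMIs summed over the cells (CPM), was 518 in single-dose PBS, 286 in single-dose bleomycin, 588 in repetitive PBS and 373 in repetitive bleomycin, against 77.3 and 72.0 in the organoid FBs, while Col1a1 lay between 692 and 3180 in all 6 libraries. Barcodes with under 2000 UMIs made up 43.7% of the repetitive bleomycin library and 33.5% of the fibrogenic organoid library, against 5.31% to 15.9% of the others. Pairs of libraries shared between 0 and 30 barcodes. Kits and schedules differed between the experiments. The single-dose libraries had 30830 and 30828 gene rows, and the repetitive and organoid libraries had 32285 each. Values from different experiments therefore stand side by side, and differences between experiments may be technical.

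Over all FBs, 5 of the 10 genes passed 2-fold in the single-dose pair and none in the repetitive pair, a contrast between experiments that was not tested. After the single dose, Sod2, Mt1, Mt2 and Hmox1 were at least 2-fold higher (4 of 10, where 7.97% of all 10672 genes with at least 50 UMIs were), and Gpx3 was at least 2-fold lower (1 of 10, against 3.79%). The count of 4 was 3 under 4 of the alternatives: Mt1 had a ratio of 0.95 after centring on the median gene and 0.98 with a gate on each barcode's own marker UMIs, and Hmox1 had 0.80 with 10 CPM added and 0.93 in cells low for dissociation and AP-1 genes. After the repetitive doses none of the 10 passed 2-fold in either direction, where 6.38% of 15075 genes were 2-fold higher and 1.83% were 2-fold lower. At 1.5-fold, the single-dose pair had 4 genes higher (16.7% of all genes) and 3 lower (9.97%), Sod1 and Sod3 joining Gpx3, and the repetitive pair had 0 higher (13.8%) and 2 lower (5.77%), Gpx3 and Mt1. Counted over all genes with a UMI, the shares past 2-fold were 7.31% higher and 2.84% lower in the single-dose pair and 3.92% and 1.12% in the repetitive pair. Ratios are given as log2 of bleomycin over PBS after 1 CPM was added to both. The median ratio over all genes was 0.08 after the single dose and 0.11 after the repetitive doses. Counting intervals (exact Poisson, 95%) cover counting error only and say nothing of the spread between mice.

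**Figure D1:**
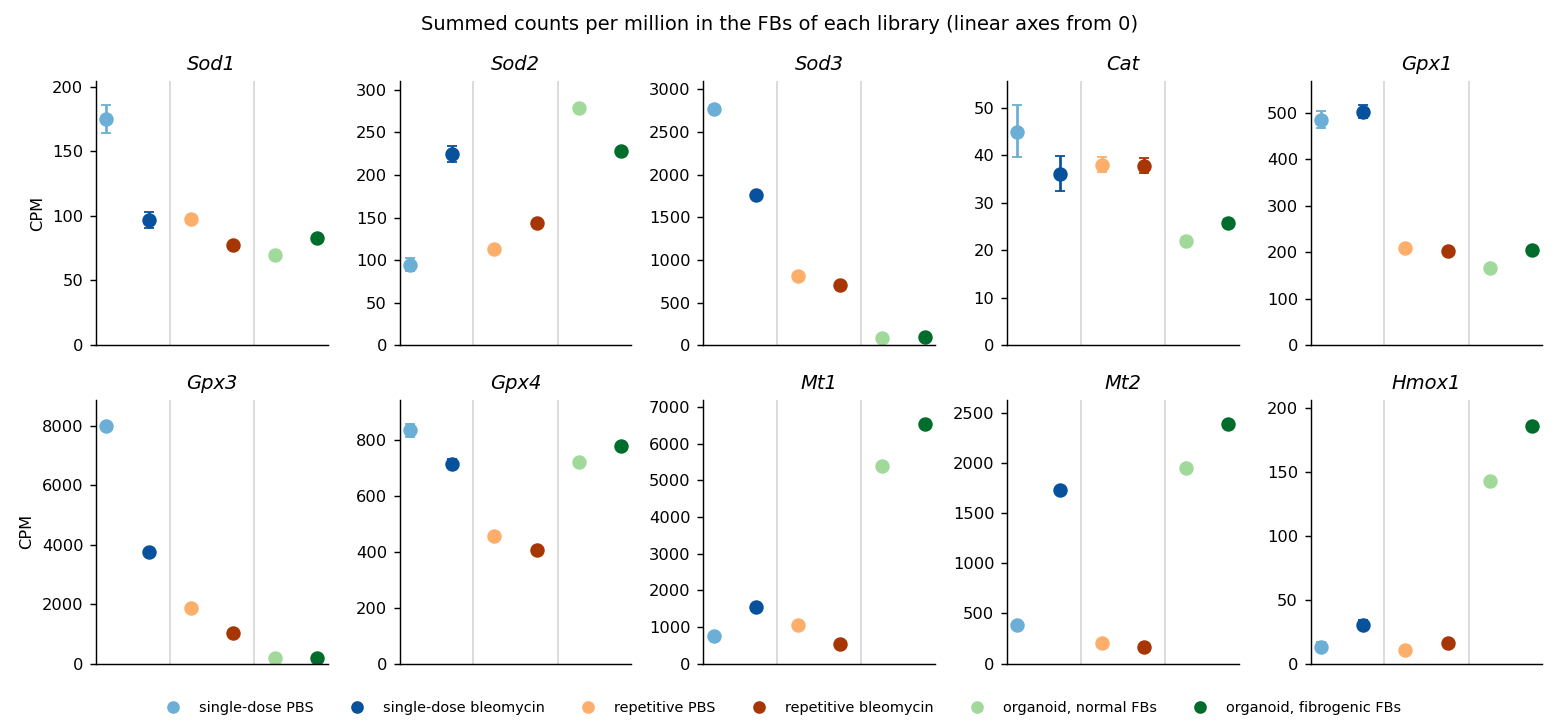
Level of each of the 10 genes in FBs, in CPM on linear axes, with 1 dot per library and exact Poisson 95% intervals that cover counting error only. Mt2 stands at 388 CPM in single-dose PBS and at 1725 CPM in single-dose bleomycin, and Gpx3 stands at 8000.1 and 3747 CPM in the same libraries.

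Among the superoxide dismutases, the extracellular and the mitochondrial enzyme went in opposite directions. Sod3 stood at 2774 CPM (2732 to 2817) in single-dose PBS FBs and at 1767 CPM (1741 to 1793) in single-dose bleomycin FBs, a log2 ratio of -0.65. In the repetitive experiment Sod3 was at 808 CPM in PBS and 711 CPM in bleomycin, a log2 ratio of -0.18. It was lower with bleomycin in both experiments, and in neither did it pass 2-fold. The study placed Sod3 in a lipofibroblast signature chosen on these cells, so its level in those cells is not independent evidence.

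Sod2 was at 94.7 CPM (87.0 to 103) in single-dose PBS and 225 CPM (215 to 234) in single-dose bleomycin, a log2 ratio of 1.24. In the repetitive libraries Sod2 was at 113 CPM and 144 CPM, a log2 ratio of 0.35. Sod2 was thus higher with bleomycin in both experiments, past 2-fold only after the single dose. The study also named Sod2 among enzymes of injured FBs on these same cells. The cytosolic enzyme Sod1 went from 175 to 96.6 CPM after the single dose (log2 ratio -0.85) and from 97.2 to 77.3 CPM after the repetitive doses (log2 ratio -0.33).

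Of the enzymes that remove peroxides, only secreted Gpx3 passed 2-fold, in the single-dose FBs. Gpx3 was at 8000.1 CPM (7928 to 8072) in single-dose PBS and 3747 CPM (3709 to 3785) in single-dose bleomycin, a log2 ratio of -1.09. It was at 1875 CPM in repetitive PBS and 1046 CPM in repetitive bleomycin, a log2 ratio of -0.84. Both experiments had lower Gpx3 with bleomycin, the lowest ratio of the 10 genes after the single dose.

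Catalase, Gpx1 and Gpx4 stayed close to their PBS levels. Cat was at 44.9 and 36.0 CPM in the single-dose FBs (log2 ratio -0.31) and at 38.0 and 37.8 CPM in the repetitive FBs (log2 ratio -0.01). Gpx1 had log2 ratios of 0.05 and -0.04 in the single-dose and repetitive FBs, with levels of 485 and 503 CPM and of 208 and 202 CPM. Gpx4, the lipid peroxidase, had log2 ratios of -0.22 and -0.16, with levels of 835 and 715 CPM and of 456 and 408 CPM. Their differences lay within 1.5-fold in both experiments.

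Hmox1 was low in FBs. It was at 13.3 CPM (10.5 to 16.6, from 79 UMIs) in single-dose PBS and 30.5 CPM (27.2 to 34.1) in single-dose bleomycin, a log2 ratio of 1.14. The repetitive libraries had 10.9 and 15.8 CPM, a log2 ratio of 0.50. Few cells carried it: with FBs thinned to 2000 UMIs, 2.41% and 5.99% of single-dose and 1.89% and 2.93% of repetitive FBs had a Hmox1 UMI, and 1 barcode alone held 22 thinned UMIs in single-dose bleomycin and 32 in repetitive bleomycin. The summed level of 8 myeloid markers in the same FBs went from 48.1 to 102 CPM after the single dose, with Marco at 0 in both libraries and Mrc1 at 0 in PBS, and from 30.3 to 61.9 CPM after the repetitive doses. In myeloid barcodes Hmox1 was at 17.1 and 34.4 CPM in the single-dose libraries and at 38.8 and 91.7 CPM in the repetitive libraries. The part of myeloid RNA in the FB level of Hmox1 was not tested.

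A metallothionein had the ratio farthest from 0 among the 10 genes in both experiments (Mt2 after the single dose, Mt1 after the repetitive doses), and the directions were opposite. Mt1 was at 759 CPM (737 to 781) in single-dose PBS FBs and 1549 CPM (1525 to 1573) in single-dose bleomycin FBs, a log2 ratio of 1.03. Mt2 was at 388 CPM (373 to 405) and 1725 CPM (1699 to 1751) in the same libraries, a log2 ratio of 2.15. Both were higher after the single dose, and the difference in Mt2 lay at the 97.4th percentile of all genes tested.

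Repetitive PBS FBs held 1058 CPM of Mt1 (1049 to 1066) and repetitive bleomycin FBs held 531 CPM (525 to 537), a log2 ratio of -0.99. Mt2 was at 203 CPM (199 to 207) and 170 CPM (167 to 174), a log2 ratio of -0.25. Both were lower, with Mt1 close to the 2-fold line and past it, at -1.01, when barcodes under 2000 UMIs were left out. Of the other genes, 5 (Cat, Sod3, Gpx4, Gpx3 and Sod1) were lower with bleomycin in both experiments, 2 (Hmox1 and Sod2) were higher in both, and Gpx1 changed sign close to 0. The signs of Cat, Mt1 and Mt2 in the repetitive FBs and of Gpx1 in both experiments turned with the way cells were weighted, scaled or chosen, for Mt1 and Mt2 as given below.

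Mt1 and Mt2 did not keep a fixed proportion. The Mt1 CPM divided by the Mt2 CPM was 1.95 in single-dose PBS FBs and 0.898 in single-dose bleomycin FBs, 5.21 and 3.12 in the repetitive FBs, and 2.77 and 2.74 in the organoid FBs. The quotient over all FBs was lower with bleomycin in both lung experiments and nearly equal in the organoid pair. In the repetitive experiment this did not hold in MatrixFB-like cells, where both genes had nearly the same ratio, or in the FBs low for dissociation and AP-1 genes described below, where the Mt1 ratio was the larger. Kits and annotations, which can shift such a quotient, were shared within an experiment. Kits differed between experiments, and the gene rows of the single-dose libraries differed from those of the repetitive and organoid libraries.

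**Figure D2:**
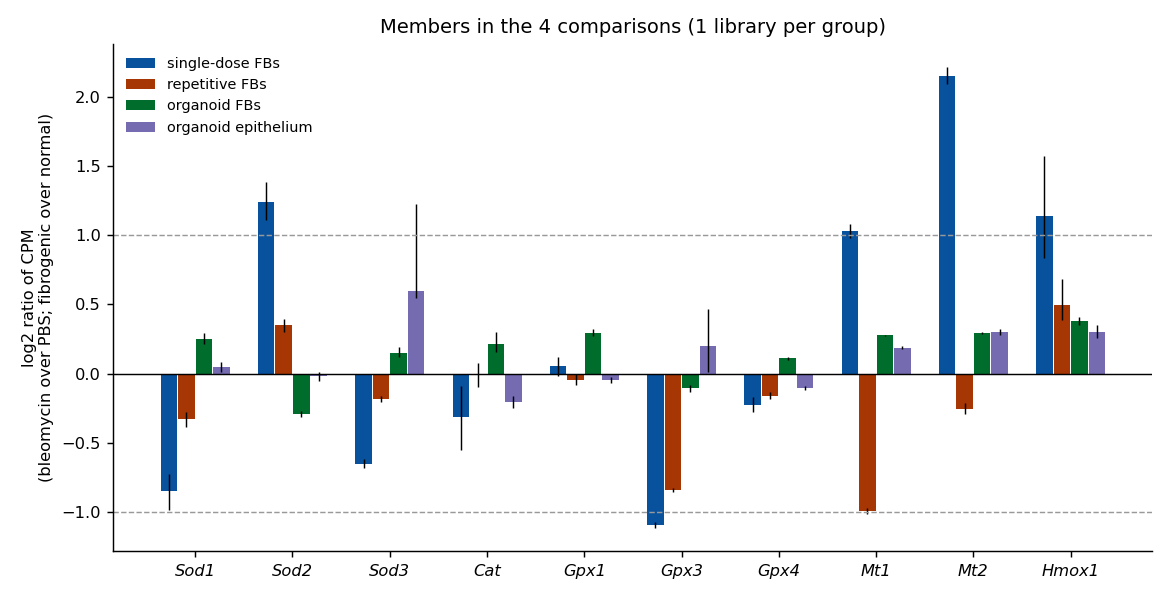
Log2 ratio of each of the 10 genes (bleomycin over PBS in lung FBs, fibrogenic over normal in organoid cells) after adding 1 CPM, for the 4 comparisons, with lines at a 2-fold difference. Interval bars are of the counts without the added 1 CPM and cover counting error only. Mt1 and Mt2 lie at 1.03 and 2.15 in the single-dose FBs and at -0.99 and -0.25 in the repetitive FBs, and no organoid value passes 2-fold.

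Metallothionein UMIs were concentrated in few cells of the lung. With each FB thinned to 2000 UMIs, the top 10% of single-dose PBS FBs held 64.4% of all Mt1 UMIs and 77.9% of all Mt2 UMIs. In single-dose bleomycin the top 10% held 49.3% and 58.6%. This share rises as a gene gets scarcer, so it is set beside Gpx1. Gpx1 was at 485 CPM in the PBS FBs, between Mt1 at 759 CPM and Mt2 at 388 CPM, and at 503 CPM in the bleomycin FBs, below both. The top 10% held 36.2% of Gpx1 UMIs in PBS and 34.5% in bleomycin. In repetitive PBS and bleomycin the top 10% of FBs held 70.7% and 59.7% of Mt1 UMIs, and 83.4% and 75.2% of Mt2 UMIs. For Gpx1, at 208 and 202 CPM against 203 and 170 CPM of Mt2, they held 48.5% and 47.4%.

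After this thinning a Mt1 UMI was present in 38.4% of single-dose PBS FBs and 64.7% of single-dose bleomycin FBs, and a Mt2 UMI in 22.7% and 56.9%. In the repetitive libraries the shares were 35.0% and 40.2% for Mt1 and 16.4% and 18.5% for Mt2. The single-dose shares were higher with bleomycin, as the levels were. The repetitive shares go against the CPM, and no order is read from them. Shares of cells with a metallothionein or Gpx3 UMI come from 1 random draw, and those with a Hmox1 UMI and the shares held by the top 10% from another. FBs under 2000 UMIs were left out: 47 and 26 in the single-dose libraries, and 169 and 3408 in the repetitive libraries. T cells had a Mt1 UMI in 13.3% and 23.1% (single dose) and 11.8% and 20.3% (repetitive) of thinned cells. Median depths of T cells were 2455 and 4398 UMIs, and 3613.5 and 3736 UMIs, against 6902.5 and 11752.5, and 10543 and 2800, for FBs.

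Genes that are switched on when tissue is taken apart differed between the libraries as well. A list of 12 dissociation and AP-1 genes (among them Fos, Jun, Egr1, Atf3 and Hspa1a) summed to 12380 CPM in single-dose PBS FBs and 4675 CPM in single-dose bleomycin FBs. Of the 12 genes, 11 were at least 2-fold lower, where 3.79% of all genes were. In repetitive FBs the sum was 14810 CPM in PBS and 8329 CPM in bleomycin, with 3 of 12 at least 2-fold lower (1.83% of all genes). PBS cells thus stood higher for this list in both experiments. The glucocorticoid response list of 8 genes, a known input to metallothioneins, summed to 825 and 505 CPM in the single-dose FBs and to 916 and 612 CPM in the repetitive FBs. Its genes did not all go the way of the sum. Ddit4, Fkbp5, Sgk1 and Per1 were higher with bleomycin after the single dose, and Ddit4 and Fkbp5 after the repetitive doses. The other genes of the list were lower.

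Within each PBS library, the lowest Mt1 level was in the FB cluster with the lowest sum of the list. In single-dose PBS, Mt1 was at 74.6 CPM in cluster 2 (list sum 4928 CPM) and at 1499.9 CPM in cluster 4 (list sum 12630 CPM), whose leading genes were Nr4a3 and Nr4a2. In repetitive PBS, Mt1 was at 107 CPM in cluster 2 (list sum 3042 CPM) and at 3004 CPM in cluster 6 (list sum 21590 CPM), led by Nr4a2 and Maff, and at 3044 CPM in cluster 15 (list sum 17150 CPM). The highest cluster of each library stood 20.1-fold above its lowest in single-dose PBS and 28.4-fold in repetitive PBS, against 2.80-fold and 11.3-fold in the bleomycin libraries. A high sum did not always go with high Mt1. In single-dose PBS, cluster 5 had the highest list sum, 19490 CPM, and 433 CPM of Mt1, and in repetitive PBS, cluster 3 had 598 CPM of Mt1 at a list sum of 22070 CPM.

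In single-dose bleomycin FBs the 5 clusters stood in the same order for Mt1 as for the list sum. All 5 had more Mt1 than the low-sum PBS cluster, from 1096 CPM (cluster 8, list sum 3027 CPM) to 3063 CPM (cluster 9, list sum 10490 CPM). Mt2 did not follow that order: its lowest level was 1445 CPM in cluster 1 (list sum 3741 CPM), below the 1644 CPM of cluster 8. Repetitive bleomycin FBs did not have their lowest Mt1 at their lowest sum, and ranged from 194 CPM (cluster 13, list sum 8766 CPM) to 2179 CPM (cluster 16, list sum 18010 CPM), the latter a cluster of shallow barcodes with a median of 910.0 UMIs. Over the FB clusters, Pearson's r between the logs of Mt1 and of the list sum was 0.697 in single-dose PBS (6 clusters), 0.785 in repetitive PBS (8 clusters) and 0.706 in repetitive bleomycin (19 clusters), but 0.30 in the normal (11 clusters) and -0.07 in the fibrogenic organoid FBs (23 clusters). For Mt2 it was 0.69, 0.565, 0.377, 0.204 and -0.195 in the same order. Clusters of a library share its mice, its preparation and its depth, and these values are descriptions.

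**Figure D3:**
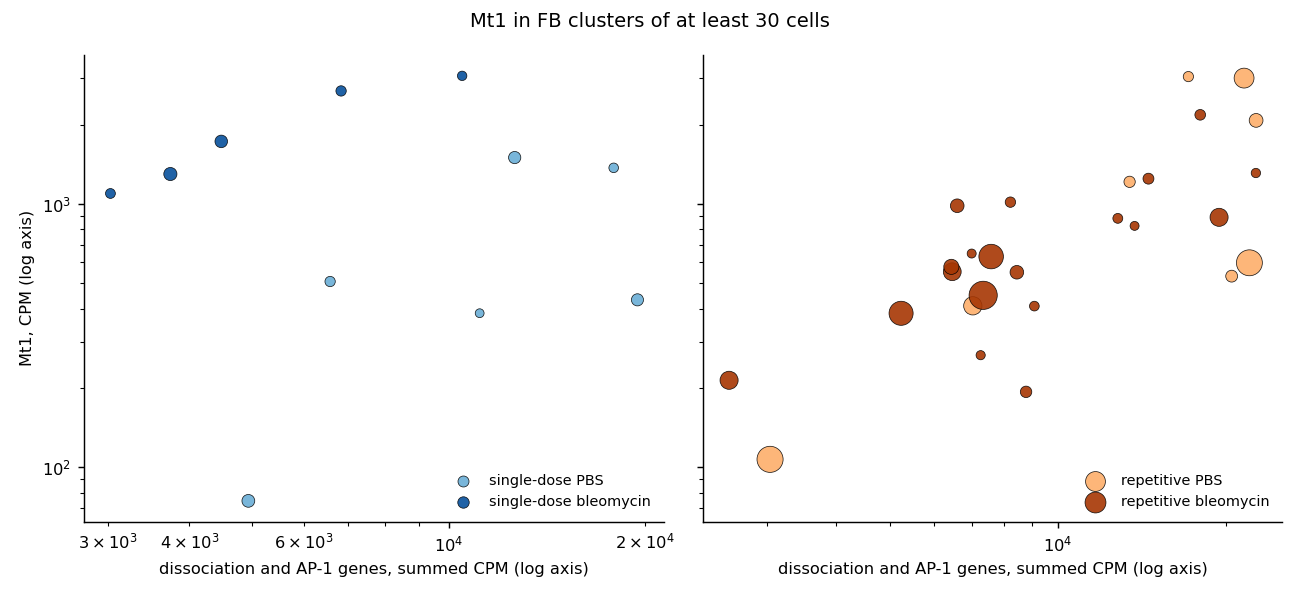
Mt1 level against the summed level of the 12 dissociation and AP-1 genes in each FB cluster of at least 30 cells, both in CPM on log axes, with the single-dose experiment left and the repetitive experiment right, and dot area following the number of cells. Single-dose bleomycin clusters lie at 1096 CPM of Mt1 or more at list sums from 3027 CPM, while the lowest PBS clusters lie at 74.6 and 107 CPM.

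The comparison was repeated on FBs with under 5000 CPM of the list, a limit set after the data were seen. They were 333 of 878 FBs in single-dose PBS, 467 of 794 in single-dose bleomycin, 1963 of 5347 in repetitive PBS and 3909 of 8287 in repetitive bleomycin. Of all FBs, 63, 98, 180 and 999 lay within 20% of the limit. In the single-dose pair below the limit, Mt1 was at 360 and 1167 CPM (log2 ratio 1.69) and Mt2 at 224 and 1488 CPM (log2 ratio 2.73). The single-dose log2 ratios of both genes were thus larger in cells low for the list than over all FBs. The levels of both genes were lower in those cells.

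In the repetitive pair below the limit the sign turned: Mt1 was at 218 CPM in PBS and 332 CPM in bleomycin (log2 ratio 0.61), and Mt2 at 78.8 and 113 CPM (log2 ratio 0.51). At or above the limit, repetitive FBs had 1431 and 734 CPM of Mt1 and 258 and 229 CPM of Mt2, PBS first. Single-dose FBs at or above it had 968 and 2249 CPM of Mt1 and 475 and 2160 CPM of Mt2. Both genes rose by more CPM there than in single-dose FBs below the limit. With this limit, Mt1 of repetitive FBs was lower with bleomycin at or above it and higher below it. Over repetitive PBS clusters Mt1 went with the list (r = 0.785), so the limit also sorts cells by Mt1. Repetitive bleomycin FBs were shallower as well (median 2800 UMIs against 10543). The split therefore does not place the lower Mt1 in 1 kind of cell. T cells of the repetitive libraries held 188 and 300.3 CPM of Mt1 and 55.3 and 197 CPM of Mt2, also higher with bleomycin. For Mt1 these levels were close to those of the FBs low for the list, and for Mt2 they were not. The part of free RNA in those FB levels was not tested. Under the same limit Sod2 had log2 ratios of 1.31 (single dose) and 0.40 (repetitive), Gpx3 -1.27 and -0.93, and Hmox1 0.93 and 0.78.

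The FB subsets of PBS lung differed in the extracellular enzymes and in the metallothioneins. Clusters were formed without the 10 genes and the pathway genes below, and were named from 8 markers for each subset. In single-dose PBS, 752 lipofibroblast-like (LipoFB-like) and 81 MatrixFB-like cells, the latter marked by Col14a1, Dcn, Ly6a and others, were found. In repetitive PBS there were 3812 and 557.

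Gpx3 was at 8788 CPM in LipoFB-like and 2512 CPM in MatrixFB-like cells of single-dose PBS, and at 2163 and 647 CPM in those of repetitive PBS. Sod3 was at 3014 and 946 CPM, and at 870.04 and 375 CPM. Both extracellular enzymes were at least 2-fold lower in MatrixFB-like cells in both PBS libraries (log2 ratios for Gpx3 -1.81 and -1.74, for Sod3 -1.67 and -1.21), although a gate on each barcode's own marker UMIs brought Sod3 in repetitive PBS to -0.90. These 2 of 10 genes stand beside 12.3% and 11.1% of all genes at least 2-fold lower. Mt1 went the other way, at 695 and 1564 CPM in single-dose PBS (log2 ratio 1.17) and 1106 and 2059 CPM in repetitive PBS (log2 ratio 0.90).

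Mt2 had log2 ratios of MatrixFB-like over LipoFB-like cells of 0.91 and 1.37, at 369 and 693 CPM and at 191 and 493 CPM. With 1 metallothionein past 2-fold in each library, 1 of 10 genes was higher against 5.57% and 8.17% of all genes. The size of this metallothionein difference depended on how cells were clustered, and reached 2.80 for Mt1 and 2.67 for Mt2 in single-dose PBS at resolution 0.5 (broader clusters), and 2.43 for Mt1 and 2.92 for Mt2 in repetitive PBS at resolution 2 (finer clusters). The dissociation and AP-1 list summed to 11760 CPM in LipoFB-like and 18470 CPM in MatrixFB-like cells of single-dose PBS, and to 15750 and 18050 CPM in repetitive PBS.

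T cells served as a reference for the secreted enzymes, since they are not known as a source of Gpx3 or Sod3. They held 1868 CPM of Gpx3 in single-dose PBS (23 cells), 581 CPM in single-dose bleomycin (27 cells), 776 CPM in repetitive PBS (130 cells) and 569 CPM in repetitive bleomycin (177 cells). Sod3 in the same T cells was at 751, 303, 310 and 346 CPM. The Gpx3 of MatrixFB-like cells in repetitive PBS (647 CPM) lay below the T cell level, and that of LipoFB-like cells (2163 CPM) above it. T cells were shallower, however, with a median of 3613.5 UMIs against 7539 in those MatrixFB-like cells, and with each cell thinned to 2000 UMIs a Gpx3 UMI was present in 54.1% of MatrixFB-like cells against 30.9% of T cells. Over all FBs the thinned shares were 98.4%, 93.9%, 89.2% and 75.0% in the 4 lung libraries, against 60.0%, 57.7%, 30.9% and 37.3% of T cells. The T cell levels of both enzymes were lower in single-dose bleomycin than in single-dose PBS, as the FB levels were, and the part of free RNA in either was not tested.

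**Figure D4:**
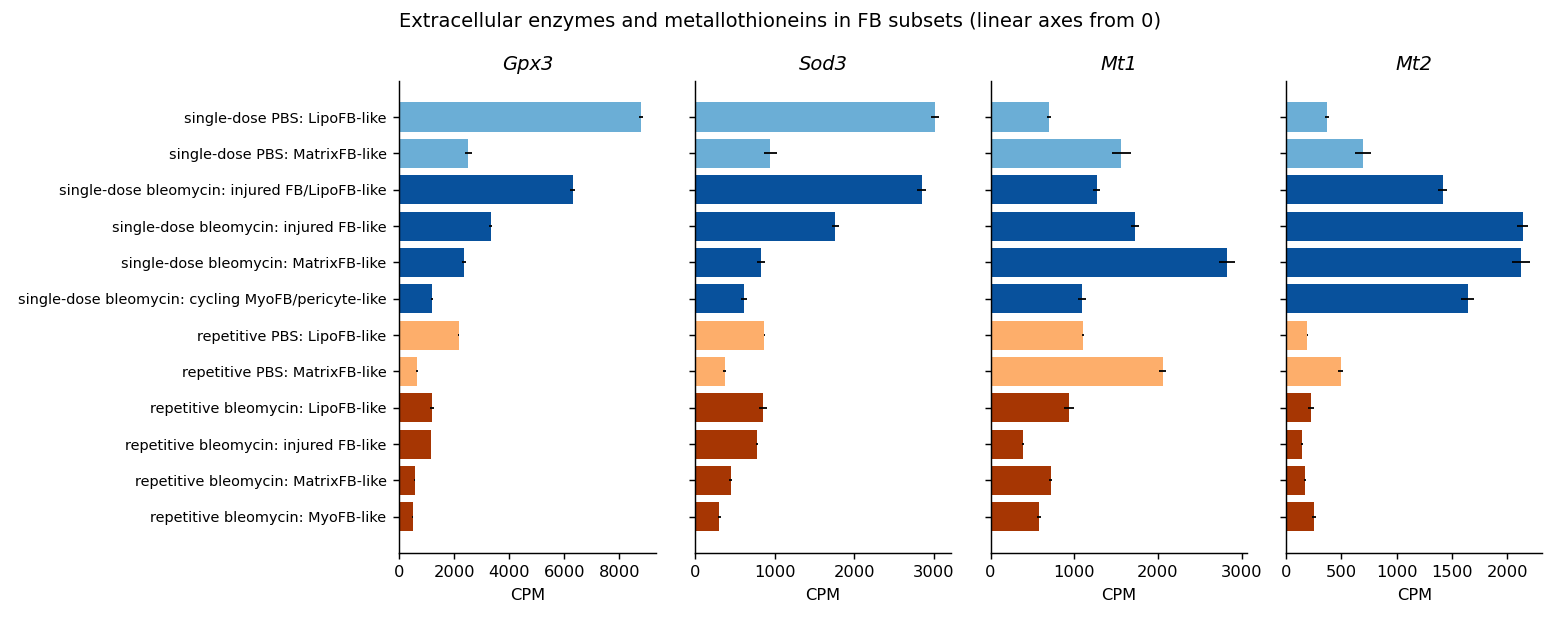
Levels of Gpx3, Sod3, Mt1 and Mt2 in the named FB subsets of the 4 lung libraries, in CPM from 0, as bars with exact Poisson 95% intervals that cover counting error only. Gpx3 and Sod3 are longest in LipoFB-like cells of PBS lung, at 8788 and 3014 CPM (single dose) and 2163 and 870.04 CPM (repetitive).

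MatrixFB-like cells were present in all 4 lung libraries and allowed a comparison within a subset. After the single dose (81 PBS and 161 bleomycin cells), Mt2 was at 693 and 2127 CPM (log2 ratio 1.62) and Mt1 at 1564 and 2821 CPM (log2 ratio 0.85). After the repetitive doses (557 and 1051 cells), Mt1 was at 2059 and 718 CPM (log2 ratio -1.52) and Mt2 at 493 and 172 CPM (log2 ratio -1.51). The opposite directions of the whole FB class were therefore found inside this subset as well. Cluster 11 held most of the repetitive PBS cells (306) and cluster 7 most of the repetitive bleomycin cells (620). Within cluster 7 Mt1 was at 1213 and 553 CPM, within cluster 11 at 2076 and 984 CPM, and within cluster 15 at 3044 and 1247 CPM, lower with bleomycin in all 3. After the single dose 1 of 9 genes with enough UMIs was 2-fold higher (4.69% of all genes) and 0 were lower (3.09%), and after the repetitive doses 0 of 10 were higher (2.88%) and 2 lower (1.51%). The dissociation and AP-1 list in these cells went from 18470 to 8152 CPM and from 18050 to 7822 CPM, lower with bleomycin in both experiments.

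Injured FBs after the single dose were described by clusters picked after the clusters were seen, each set against single-dose PBS LipoFB-like cells. Cluster 1 (264 cells, led by Hp and Lcn2, with 5 of 8 injured FB markers and 5 of 8 LipoFB markers) had Sod3 at 2854 CPM against 3014 CPM (log2 ratio -0.08) and Gpx3 at 6361 against 8788 CPM (log2 ratio -0.47). Its Sod2 was at 307 CPM against 98.9 CPM (log2 ratio 1.62), Hmox1 at 42.8 against 13.3 CPM (log2 ratio 1.62) and Mt2 at 1445 against 369 CPM (log2 ratio 1.96). In this cluster 3 of the 10 genes were at least 2-fold higher (4.63% of all genes) and 0 lower (3.35%).

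Cluster 3 (227 cells, injured FB-like) had Gpx3 at 3317 CPM (log2 ratio -1.41), Sod3 at 1763 CPM, Mt2 at 2142 CPM (log2 ratio 2.53) and Sod2 at 244 CPM (log2 ratio 1.29). Cluster 8 (79 cells, with 8 of 8 myofibroblast (MyoFB), 6 of 8 cycling and 4 of 8 pericyte markers) had the lowest extracellular enzymes of these 3 clusters, Gpx3 at 1191 CPM (log2 ratio -2.88) and Sod3 at 617 CPM (log2 ratio -2.29). Mt2 in cluster 8 was at 1644 CPM (log2 ratio 2.15), so Mt2 was high in each of these clusters while Gpx3 and Sod3 stepped down from cluster 1 to cluster 8. Mt1 did not pass 2-fold in cluster 8, where its 1096 CPM was the lowest of the 5 FB clusters of single-dose bleomycin. In cluster 3, 3 genes were higher (7.51% of all genes) and 1 lower (5.49%), and in cluster 8, 1 was higher (11.1%) and 3 were lower (12.1%).

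In the repetitive lung the extracellular enzymes were again low in myofibroblast-like cells, though low levels were not particular to such cells. MatrixFB-like cells of PBS lung were low as well, and in single-dose bleomycin Sod3 was lowest in cluster 9, at 461 CPM. Against repetitive PBS LipoFB-like cells, the MyoFB-like cells of repetitive bleomycin (402 cells) had Gpx3 at 488 CPM (log2 ratio -2.15) and Sod3 at 309 CPM (log2 ratio -1.49), both below the T cell CPM of that library. With cells thinned to 2000 UMIs, 63.9% of these MyoFB-like cells had a Gpx3 UMI and 47.3% a Sod3 UMI, against 37.3% and 28.0% of T cells. Hmox1 in MyoFB-like cells was at 24.0 CPM against 9.71 CPM (log2 ratio 1.23). In all, 1 of 10 genes was higher (9.43% of all genes) and 2 lower (11.3%).

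Cluster 9 of repetitive bleomycin (644 cells, unnamed, led by Cpm and Hp, with 5 of 8 LipoFB markers) held Gpx3 at 1704 CPM (log2 ratio -0.34) and Sod3 at 964 CPM (log2 ratio 0.15), neither past 2-fold. Its Mt1 was at 214 CPM (log2 ratio -2.36) and its Mt2 at 89.1 CPM (log2 ratio -1.09), where 3.37% of all genes were 2-fold lower. The list sum of this cluster was 2568 CPM, against 15750 CPM in PBS LipoFB-like cells. In cluster 9, 0 of 10 genes were higher (4.47% of all genes) and 2 lower. Cluster 5 (1263 cells, injured FB-like) had Mt1 at 385 CPM (log2 ratio -1.52), with 0 genes higher (8.35%) and 1 lower (3.89%). Cluster 10 (642 cells, led by Hk2, Il6 and Cxcl1) had the highest Sod2 of the repetitive bleomycin clusters set against LipoFB-like cells, 215 CPM (log2 ratio 0.83). None of the 10 genes passed 2-fold in cluster 10 (6.21% of all genes were higher and 3.89% lower). Over all 19 FB clusters of repetitive bleomycin, Sod2 was highest in cluster 20, at 502 CPM, which was not set against LipoFB-like cells.

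The naming rule left 5278 of 8287 repetitive bleomycin FBs unnamed (median 1730 UMIs), cluster 9 among them. In repetitive PBS it left 947 of 5347 FBs unnamed. Cell counts of named subsets are therefore not read as gains or losses. The LipoFB-like group of repetitive bleomycin had 100 cells, against 3812 in PBS. Gpx3 in these cells was at 1183 CPM against 2163 CPM (log2 ratio -0.87), Sod3 at 852 against 870.04 CPM (log2 ratio -0.03), and Mt1 at 936 against 1106 CPM (log2 ratio -0.24). Gpx3 was thus lower in cells that bore LipoFB markers while Sod3 was level. None of the 10 genes passed 2-fold, where 5.84% of all genes were higher and 5.72% lower. The dissociation and AP-1 list summed to 20900.0 CPM in these cells, against 15750 CPM in PBS.

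Outside the FBs, Gpx1 was highest in myeloid barcodes, at 1319 and 1447 CPM in the single-dose and 792 and 606 CPM in the repetitive libraries. Cat was highest in epithelial barcodes, at 169 and 155 CPM (9 and 5 barcodes) and at 296 and 191 CPM (35 and 32 barcodes). Neither gene differed between PBS and bleomycin FBs past 2-fold, and both were carried at higher levels by cells that the GFP sort did not aim for. Epithelial markers in single-dose FBs summed to 795 CPM in PBS, with Epcam at 0, and 97.0 CPM in bleomycin, and to 76.5 and 140.4 CPM in the repetitive FBs. Whether this RNA had a part in FB Cat was not tested.

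The remaining genes of the oxidant and metal pathways held few genes past 2-fold. The shares to read these counts against are those over all genes, 7.97% higher and 3.79% lower in the single-dose FBs and 6.38% and 1.83% in the repetitive FBs. Of 14 NRF2 pathway genes with enough UMIs in the single-dose FBs, 0 were 2-fold higher and 2 were lower: Gsta4, a glutathione transferase, went from 21.0 to 5.31 CPM (log2 ratio -1.80), and the highest was Abcc1 (log2 ratio 0.49). In the repetitive FBs 0 of 15 were higher and 1 was lower, Osgin1, from 28.9 to 9.07 CPM (log2 ratio -1.57), and the highest was Me1 (log2 ratio 0.86). Hmox1, itself an NRF2 target, was higher with bleomycin in both experiments, beside list medians of -0.09 and -0.12.

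Metal handling genes had 1 and 2 members past 2-fold upward, with list medians above that of all genes. Of 12 tested in the single-dose FBs, 1 was 2-fold higher (7.97% of all genes), the zinc and iron importer Slc39a14, from 14.0 to 88.1 CPM (log2 ratio 2.58), and the lowest was the ferritin chain Fth1 (log2 ratio -0.63). In the repetitive FBs 2 of 14 were 2-fold higher (6.38% of all genes): the iron exporter Slc40a1, from 11.7 to 48.8 CPM (log2 ratio 1.98), and Slc39a14, from 53.1 to 109 CPM (log2 ratio 1.02). The lowest there was Ftl1 (log2 ratio -0.56). The list medians were 0.54 and 0.32, against 0.08 and 0.11 over all genes. Slc39a14 was thus past 2-fold in both experiments, in the single-dose FBs beside higher and in the repetitive FBs beside lower Mt1 and Mt2.

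Among 15 thioredoxin and peroxiredoxin genes, the thioredoxin inhibitor Txnip was lowest in both experiments, from 252 to 87.7 CPM (log2 ratio -1.51, the 1 gene past 2-fold) and from 317 to 169 CPM (log2 ratio -0.91). The highest were Prdx5 (log2 ratio 0.85) after the single dose and Prdx4 (log2 ratio 0.44) after the repetitive doses. No glutathione synthesis or recycling gene passed 2-fold in either experiment (6 and 8 tested), with Ggct highest at 0.70 and 0.65 and Gclc, a subunit of the rate-limiting enzyme, lowest at -0.49 and -0.93.

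Of 6 further members of these enzyme families, the endoplasmic reticulum peroxidase Gpx7 was highest in both experiments, from 60.5 to 125 CPM (log2 ratio 1.03) and from 25.2 to 46.7 CPM (log2 ratio 0.87), and Blvrb was lowest (log2 ratios -0.52 and -0.17). Selenoprotein P (Selenop), a selenium carrier, was lowest of 10 selenoprotein genes, from 1238 to 424 CPM (log2 ratio -1.55) and from 656 to 414 CPM (log2 ratio -0.66), while Sephs2 and Secisbp2 were highest at 0.28 and 0.38. Gpx3 and Selenop, both secreted selenoproteins, were thus lower with bleomycin in both experiments.

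Sources of superoxide and peroxide split. In the single-dose FBs 1 of 6 passed 2-fold upward, the collagen crosslinking oxidase Lox, from 161 to 401 CPM (log2 ratio 1.31), and 2 downward, Nox4 and Maob (lowest, log2 ratio -1.18). In the repetitive FBs none of 9 passed 2-fold, between Cybb at 0.86 and Xdh at -0.76. Cybb was near the floor, at 0.275 CPM in PBS and 1.32 CPM in bleomycin, where the added 1 CPM shrinks a ratio.

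Cytokine response genes had the widest range of any list, with 5 of 10 genes at least 2-fold higher after the single dose (7.97% of all genes) and 3 of 10 after the repetitive doses (6.38%). The acute phase gene Saa3 was highest, from 5.21 to 492 CPM (log2 ratio 6.31) and from 9.02 to 318 CPM (log2 ratio 4.99), and Socs3 (log2 ratio -0.74) and Icam1 (log2 ratio -0.59) were lowest. Of 8 glucocorticoid response genes, 1 was higher and 2 were lower after the single dose, with Ddit4 highest (log2 ratio 2.48) and Tsc22d3 lowest (log2 ratio -1.84), and 2 were higher and 2 lower after the repetitive doses, with Ddit4 highest (log2 ratio 1.90) and Zbtb16 lowest (log2 ratio -1.42). Among the dissociation and AP-1 genes Atf3 was lowest in both experiments (log2 ratios -2.20 and -1.88), and Ier3 (log2 ratio 0.49) and Hspa1b (log2 ratio 0.68) were highest.

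In the organoids, none of the 10 genes passed 2-fold in epithelium or FBs. Organoid epithelium held 1939 cells with normal and 2244 with fibrogenic FBs, and 0.255% of 14887 genes were 2-fold higher and 0.161% lower. Of these cells, 377 and 1071 were left unnamed (median 8675 and 2119 UMIs) and are in none of the epithelial states below. Mt1 was at 2807 and 3196 CPM (log2 ratio 0.19), Mt2 at 464 and 570.3 CPM (log2 ratio 0.30) and Hmox1 at 92.3 and 114 CPM (log2 ratio 0.30). Cat was at 135 and 117 CPM, a log2 ratio of -0.21. At 1.5-fold, Sod3 alone was higher, from 1.56 to 2.88 CPM (2.0% of all genes were), and none were lower (0.732%). Over all genes with a UMI, 0.163% were 2-fold higher and 0.103% lower. With 1 library per group the spread of these differences is unknown.

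By named epithelial state, the log2 ratio of Mt1 was largest in the transitional cells (PATS-like, 197 and 262 cells), while Cat was nearly level there. In PATS-like cells Mt1 was at 1001 and 1687 CPM (log2 ratio 0.75), Mt2 at 182 and 298 CPM (log2 ratio 0.71) and Hmox1 at 84.8 and 143 CPM (log2 ratio 0.75). AEC2-like cells (1076 and 697) had log2 ratios of 0.30 for Mt1 and 0.44 for Mt2, at 3263 and 4004 CPM and at 523 and 711 CPM, and none of the 10 genes passed 2-fold (0.211% of all genes were higher and 0.0827% lower). Cycling AEC2-like cells (199 and 103) were much alike, with Mt1 at 3156 and 3913 CPM, and none of 8 genes with enough UMIs passed 2-fold (0.391% and 0.158%). AEC1-like cells (90 and 111) had 1418 and 1465 CPM of Mt1, a difference smaller than in PATS-like cells, though no test of that was made, and none of 8 genes passed 2-fold (0.102% and 0.523%). In PATS-like cells 0.445% of all genes were 2-fold higher and 0.632% lower, against 0 of 9 genes, and the dissociation and AP-1 list summed to 4728 and 5391 CPM.

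Levels of metallothioneins, catalase and Gpx4 differed between the epithelial states within each organoid library. Gpx4 in AEC1-like and PATS-like cells stayed within 2-fold of its level in AEC2-like cells. Mt1 was lower in PATS-like than in AEC2-like cells, by log2 ratios of -1.70 (normal) and -1.25 (fibrogenic), and in AEC1-like than in AEC2-like cells, by -1.20 and -1.45. Cat was at 166 CPM in AEC2-like, 77.4 CPM in AEC1-like and 59.9 CPM in PATS-like cells with normal FBs, and at 153, 72.9 and 59.6 CPM with fibrogenic FBs. This order of Cat, with AEC2-like cells on top, was the same in both libraries. Of these 3 states Gpx4 was highest in AEC1-like cells, at 2469 and 2069 CPM against 1417 and 1264 CPM in AEC2-like cells (log2 ratios 0.80 and 0.71).

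Past 2-fold in PATS-like over AEC2-like cells were 3 genes (Mt1, Mt2 and Cat) in both libraries, all lower, where 10.5% and 10.7% of all genes were lower, and 0 were higher (16.0% and 14.6%). In AEC1-like over AEC2-like cells 3 genes were lower with normal FBs (11.5%) and 4 with fibrogenic FBs (12.2%), the latter including Hmox1 (log2 ratio -1.24). Higher there were 2 genes with normal FBs (10.9%), Sod3 and Gpx3, from 1.06 to 5.04 CPM and from 2.45 to 7.69 CPM. None were higher with fibrogenic FBs (9.95%). Over all organoid epithelium Sod3 was at 1.56 and 2.88 CPM and Gpx3 at 4.25 and 5.02 CPM, far below the levels of 89.0 and 192 CPM in normal organoid FBs, although epithelial cluster 10 of the fibrogenic library held 32.4 and 35.0 CPM.

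**Figure D5:**
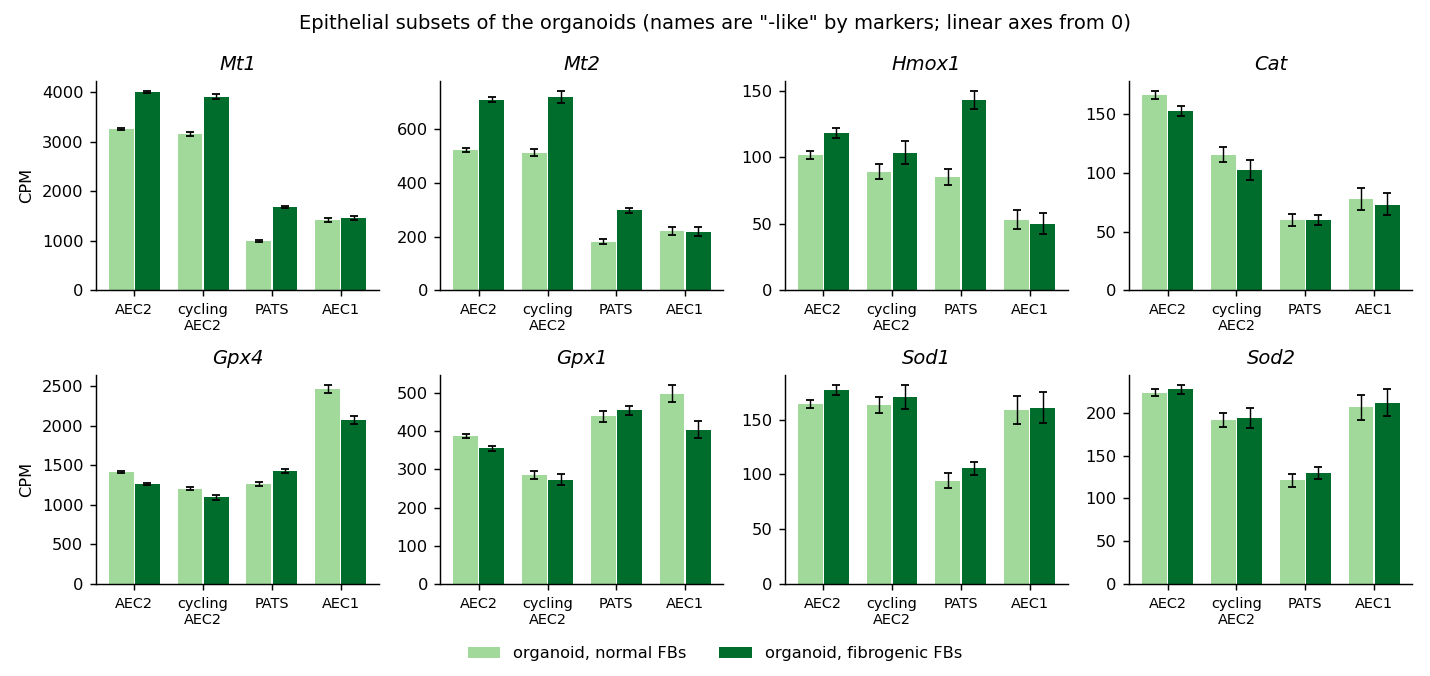
Levels of 8 of the 10 genes in AEC2-like, cycling AEC2-like, PATS-like and AEC1-like cells of the organoids with normal and fibrogenic FBs, in CPM from 0, as bars with exact Poisson 95% intervals that cover counting error only. In PATS-like cells Mt1 stands at 1001 CPM with normal and 1687 CPM with fibrogenic FBs, and Cat is longest in AEC2-like cells of both libraries, at 166 and 153 CPM.

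Organoid FBs (2012 normal and 4640 fibrogenic) had Mt1 at 5399 and 6536 CPM (log2 ratio 0.28), Mt2 at 1948 and 2384 CPM (log2 ratio 0.29) and Hmox1 at 143 and 185 CPM (log2 ratio 0.38). Sod2 was at 279 and 228 CPM (log2 ratio -0.29), Gpx1 at 166 and 204 CPM (log2 ratio 0.29) and Gpx3 at 192 and 178 CPM (log2 ratio -0.11). No gene passed 2-fold, as 0.263% of 15998 genes did upward and 0.75% downward (0.17% and 0.485% of all genes with a UMI), and none passed 1.5-fold (1.49% and 2.74%). Among organoid FBs thinned to 2000 UMIs, 92.1% and 96.4% had a Mt1 UMI, and the top 10% held 37.9% and 34.6% of Mt1 UMIs. The 67 normal and 1694 fibrogenic FBs under 2000 UMIs were left out of the latter shares. Mt1 was more abundant here than in lung FBs, and both kinds of share depend on the level. Many organoid FB barcodes had few UMIs, and epithelial markers in the class summed to 564 and 731 CPM.

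Subsets of organoid FBs differed more than the pair of libraries did, although 1397 normal and 3587 fibrogenic FBs were left unnamed (median 47479 and 2350 UMIs). MyoFB-like cells had the lowest Mt1 of the fibrogenic organoid FB clusters, 1865 CPM, with 1318 CPM in the normal library, and had Hmox1 at 315 CPM (normal) and 265 CPM (fibrogenic). LipoFB-like cells had Hmox1 at 122 and 192 CPM, and Gpx3 at 442 and 423 CPM. The pericyte-like cluster had Mt1 at 11571 and 12262 CPM, the latter the highest of the fibrogenic FB clusters, while unnamed cluster 2 was highest in the normal library at 11743 CPM. Sod3 was again higher in LipoFB-like cells than in the class, at 274 and 225 CPM in these cells against 89.0 and 99.01 CPM in all organoid FBs. None of the 10 genes passed 2-fold within LipoFB-like (0.674% of all genes higher, 0.971% lower), proliferating mesenchymal progenitor-like (PMP-like; 0.745%, 1.8%) or MyoFB-like cells (1.11%, 1.05%).

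On the pathway lists, organoid epithelium had no gene past 2-fold in any of the 10 lists, with Ephx1 highest (log2 ratio 0.72) and Slc7a11 lowest (log2 ratio -0.77) among NRF2 pathway genes. Organoid FBs had 14 of 15 NRF2 pathway genes above 0 and none past 2-fold, with a list median of 0.22 against -0.01 over all genes. Over all genes, 0.255% were 2-fold higher and 0.161% lower in organoid epithelium, and 0.263% and 0.75% in organoid FBs. Lower past 2-fold in organoid FBs were Slc40a1 (26.5 to 7.46 CPM, log2 ratio -1.70), Nox4 (42.7 to 17.1 CPM, log2 ratio -1.28) and 2 cytokine response genes, among them Hp (219 to 81.1 CPM, log2 ratio -1.42). Another metallothionein, Mt3, was at 10.8 CPM in normal and 22.3 CPM in fibrogenic organoid FBs (log2 ratio 0.99).

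The pattern of each gene over 34 named populations (subset by library, at least 30 cells) was set against 10245 genes by Pearson's r of the log2 levels. Sod3 was most like Prelp (r = 0.983), Fhl1 (0.977) and Fxyd1 (0.977), and Gpx3 was most like Fhl1 (0.966), Prelp (0.963) and Olfml3 (0.962). Over these pooled populations Sod3 and Gpx3 followed each other (r = 0.971), as did Mt1 and Mt2 less closely (r = 0.840). Over the FB clusters within a library the order was reversed. For Mt1 and Mt2, r was 0.997 in single-dose PBS, 0.938 and 0.719 in repetitive PBS and bleomycin, and 0.986 and 0.868 in normal and fibrogenic organoid FBs. For Sod3 and Gpx3 it was 0.982, 0.883, 0.44, 0.532 and 0.575 in the same order. Mt1 was most like Apln (0.896), Sfxn1 (0.890) and Gpi1 (0.860), and Sod2, whose best value was the lowest of the 10 genes, was most like Pdk3 (0.787), Scp2 (0.718) and Slc16a1 (0.715). The closest genes were Rogdi for Sod1 (0.930), Ppp1r14c for Cat (0.891), Gnb2 for Gpx1 (0.85), Uqcr11 for Gpx4 (0.923), Sec61g for Mt2 (0.830) and Galk1 for Hmox1 (0.886). Populations of a library share its mice and depth, and lung and organoid populations differ in many genes at once, so these values are descriptions.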

How the data were processed

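The deposited values were raw UMI counts per gene and barcode, which the authors made with Cell Ranger 3.0.1 (GRCm38, mm10; Gencode M17 stated for the single dose) and analysed with Seurat 3. Here barcodes high in mitochondrial (3 median absolute deviations, at most 25%) or erythrocyte (over 0.5%) UMIs were removed. Each experiment was clustered with scanpy 1.11.5 (2000 variable genes, 30 components, 20 neighbours, resolution 1), leaving out the 10 genes and the pathway genes. Cell types were named from 8 markers each, with at least 3 and 50% of them present (some lists of other cell types were shorter), and a rule on clusters led by immune genes was added after clusters were seen. UMIs were summed per library and population as CPM with exact Poisson 95% intervals, and ratios were taken after adding 1 CPM. Genes with at least 50 UMIs set the background. Calculations were tested on simulated data. No test between groups was possible with 1 library per group, so p-values are not given.

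The 10 genes, the 10 pathway lists and the markers were chosen with earlier results of these data known. All 10 genes were described, and for each pathway list the genes with the highest and the lowest ratio in lung FBs were named. For the organoids only some of these were named. For each of the 10 genes the genes most like it over populations were named. A few further genes and the cluster numbers were chosen after their values were seen. In all, 12 alternatives were run, 11 of them planned. Doublets were kept.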

Additional observations from a re-analysis of the deposited data

Results flagged for a closer look

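The metallothioneins differed in direction between the experiments. In FBs, Mt1 had a log2 ratio of bleomycin over PBS of 1.03 after the single dose and -0.99 after the repetitive doses. Mt2 had log2 ratios of 2.15 and -0.25. Each pair has opposite signs with 1 library per group, and the difference between the experiments was not tested. In FBs with under 5000 CPM of the dissociation and AP-1 genes the repetitive ratios were 0.61 for Mt1 and 0.51 for Mt2, and the single-dose ratios were 1.69 and 2.73. The repetitive levels behind these ratios were 218 and 332 CPM of Mt1 and 78.8 and 113 CPM of Mt2, PBS first. T cells of the repetitive libraries were also higher with bleomycin, at 188 and 300.3 CPM of Mt1 and 55.3 and 197 CPM of Mt2. The part of free RNA in the turned sign was not tested.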

How the results depend on the processing

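No paired analysis was possible because each group held 1 library. Of the values that answer a comparison, 121 stayed within 1.5 times their value and 29 did not. With a 1.5-fold ratio in place of 2-fold, 3 genes were lower in single-dose FBs, 2 were lower in repetitive FBs, 1 was higher in organoid epithelium, and 2 (single-dose PBS) and 4 (repetitive PBS) were higher in MatrixFB-like over LipoFB-like cells. In repetitive FBs 1 gene was lower when barcodes under 2000 UMIs were left out, or when ratios were centred on the median gene. In single-dose FBs 3 genes in place of 4 were higher after centring, with a gate on marker UMIs, with 10 CPM added, or under the limit on dissociation and AP-1 genes. With the mean of each cell's CPM, 2 genes were higher in organoid epithelium, Sod3 and Gpx3, at low levels. In MatrixFB-like over LipoFB-like cells of both PBS libraries 2 genes were higher, in place of 1, at resolution 2 or 0.5, with the 10 genes and pathway genes kept, with doublets called by Scrublet removed, or by the mean of each cell's CPM; so were 2 without a filter on cells or above 2000 UMIs (single-dose PBS) and 2 after centring (repetitive PBS). A gate on each barcode's own marker UMIs left 1 gene lower in the repetitive PBS pair, with Sod3 at -0.90. The cause was not tested. Under the limit of 5000 CPM of the dissociation and AP-1 genes, added after the data were seen, 3 genes were higher in the repetitive PBS pair. Its single-dose PBS pair had too few cells and was not run. Over all genes with a UMI, which adds genes of few counts, the share of genes 2-fold higher and lower was 3.92% and 1.12% in repetitive FBs, 0.163% and 0.103% in organoid epithelium and 0.17% and 0.485% in organoid FBs. Mt1 in single-dose FBs ranged from 0.95 to 1.69 and Mt2 from 2.03 to 2.73, and in repetitive FBs Mt1 from -1.10 to 0.61. Scrublet marked 0 or 1 barcodes in each of the 4 larger libraries, so it did not work there and doublets remain. In repetitive PBS it marked 1 of 6139 barcodes, and the changed count under that setting is not read as an effect of doublets.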
